A study of Schizosaccharomyces pombe with 12 samples.

Results

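Cytosolic ribosomal protein genes encode the proteins of the small (40S) and large (60S) ribosomal subunits. The 54 genes described here were chosen by a list of systematic identifiers, and all 54 were among the 7004 genes of the count table and passed the filter on low counts in every comparison. They make up 30 protein families, of which 7 had a single gene on the list, 22 had 2 copies and 1, rpl8 (uL2), had 3. By subunit, 17 belonged to the 40S and 37 to the 60S. Another 87 genes annotated as ribosomal proteins were in the table and served for comparison. The annotation names all 54 as ribosomal proteins, with rpl701 (SPBC18H10.12c) annotated as an L7-like protein and RNase MRP subunit.

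A ribosome takes up each of its proteins in a single copy or nearly so, and in growing yeast the messenger RNAs of these proteins are among the most abundant of the cell. Their transcription is adjusted together with growth, nutrients and stress, largely under the TOR kinase pathway. In fission yeast many of their promoters carry the HomolD box, which takes the place of a TATA box, often with a HomolE box upstream. Most ribosomal protein genes of this yeast exist as 2 or more copies that encode nearly identical proteins.

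The libraries came from *Schizosaccharomyces pombe* wild types and strains lacking a component of telomerase biogenesis: Thc1, a putative cap-binding protein, or Bmc1, the relative of metazoan methyl phosphate capping enzymes. The thc1 experiment compared thc1Δ (PP1847, thc1::his3) with its parent PP138, and both strains were h- and carried the alleles ade6-M216, leu1-32, ura4-D18 and his3-D1. The bmc1 experiment compared bmc1Δ (PP1861, bmc1::natMX6), obtained from a sporulated diploid, with PP1860, and both were h+ and carried leu1-32, ura4-D18 and his3-D1 together with ade6-M210 or ade6-M216. Each of the 4 groups had 3 libraries of ribosomal RNA-depleted RNA from log-phase cultures in rich YES medium at 32 °C, all from a single strain, so that p-values measure only the spread between these libraries. Here an experiment means a deletion together with its own wild type. The labels used name no batch, and the paper pooled all samples for sequencing. Whether the cultures of both experiments were grown together is not stated. The wild types differ in mating type and strain history, and may differ in the ade6 allele and in culture. These cannot be told apart.

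Total counts ranged from 33565122 to 40328959 per library, and 4.09% to 4.91% of them fell on ribosomal RNA and mitochondrial genes. The deleted genes were lower where the labels place the deletion, without being absent: thc1 had 726, 744 and 735 counts in thc1Δ against 1829 to 1950 in its wild type, and bmc1 had 552, 555 and 558 in bmc1Δ against 895 to 1050. The paper replaced the open reading frames and reports that no reads mapped there in the deletions. The counts here are per gene, and which part of each gene they fall on was not tested. Summed levels of 5 M-cell mating genes were 114 to 117 CPM (counts scaled to the same library total) in the h- wild type and 86.0 to 99.7 CPM in the h+ wild type, and those of 2 P-cell genes were 20.8 to 22.2 and 23.2 to 24.8 CPM. The wild types thus did not overlap in either sum, whereas with the deletions included the h- and h+ ranges overlapped in both. By edgeR's test 1 of the 5 M-cell genes, mfm2, was lower in h+, and 1 of the 2 P-cell genes, map3, was higher. Their log2 fold changes were -2.40 and 0.28 (edgeR adjusted p = 0.0037 and 0.0054). The M-cell genes had a median of -0.090 with 1 above 0, and the other P-cell gene was at -0.22 and was not called. Replicate 1 of both bmc1-experiment groups stood apart from its group in the ribosomal protein genes. Between replicates 1 and 2 of the h+ wild type the chi-square per degree of freedom was 222 over the 54 genes and 29.6 over all genes, against 9.66 and 13.7 between replicates 2 and 3. This value grows with counts, so those of the abundant 54 genes and of all genes are not on the same scale. Over all genes the largest values, 68.9 and 65.5, set thc1Δ replicate 1 against replicates 2 and 3, which were at 20.8. Over the 54 genes these 3 values were 61.4, 23.0 and 40.5.

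Upstream of the transcript starts the exact HomolD letters CAGTCACA, searched on both strands from 250 bases before to 50 bases after the start, were present in 42 of the 54 genes (77.8%). The same letters were present in 47 of the 87 other ribosomal protein genes (54.02%) and in 137 of 5123 protein-coding genes (2.67%). The first 8 letters of the HomolE box, ACCCTACC, were found in 17 of the 54 (31.5%), 24 of the 87 (27.6%) and 83 of the 5123 (1.62%), and 14 of the 54 genes held both, with HomolE upstream of HomolD and no overlap of the matches in each. The HomolD matches lay at a median position of -49.5 relative to the start (from -148 to -16), with 33 of 42 in the direction of transcription. The 42 genes with an exact HomolD match had a median level of 1356 CPM per kb of exon, and the 12 without had a median of 1639.

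The 100-base windows printed next come from RefSeq (ASM294v3), end at or before the annotated start, and are written 5′ to 3′ along the gene with HomolD and HomolE letters, in either direction, in capitals. They are shown because these genes carry the results that follow: the highest and lowest levels, the rises in thc1Δ, the largest differences between the wild types and copies whose share of their pair is given.
rps102: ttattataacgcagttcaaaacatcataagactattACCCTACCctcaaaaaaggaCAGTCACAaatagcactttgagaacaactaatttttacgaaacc
rps801: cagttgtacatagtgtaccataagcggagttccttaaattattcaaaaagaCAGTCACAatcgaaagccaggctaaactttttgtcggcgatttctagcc
rps901: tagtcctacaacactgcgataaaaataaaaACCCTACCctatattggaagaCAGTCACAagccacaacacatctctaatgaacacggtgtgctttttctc
rpl102: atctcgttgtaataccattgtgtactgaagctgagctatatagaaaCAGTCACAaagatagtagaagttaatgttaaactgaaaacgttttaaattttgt
rpl401: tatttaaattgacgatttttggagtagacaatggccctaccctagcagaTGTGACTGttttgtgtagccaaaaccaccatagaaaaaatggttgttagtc
rpl502: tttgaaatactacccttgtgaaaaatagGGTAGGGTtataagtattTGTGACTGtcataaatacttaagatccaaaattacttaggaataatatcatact
rpl1201: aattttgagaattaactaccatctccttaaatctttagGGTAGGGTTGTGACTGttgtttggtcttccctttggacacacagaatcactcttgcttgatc
rpl2101: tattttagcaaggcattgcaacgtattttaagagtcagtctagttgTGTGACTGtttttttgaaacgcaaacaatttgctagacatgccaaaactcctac
rpl2102: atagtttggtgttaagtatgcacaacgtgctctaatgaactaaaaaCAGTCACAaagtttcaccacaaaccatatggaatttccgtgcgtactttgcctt
Their positions were chrI:898963-899062 (- strand) for rps102, chrI:4287433-4287532 (- strand) for rps801 and chrI:476123-476222 (- strand) for rps901. For the 60S genes they were chrII:3060446-3060545 (+ strand) for rpl102, chrII:2143020-2143119 (+ strand) for rpl401, chrII:3365648-3365747 (- strand) for rpl502 and chrIII:691651-691750 (- strand) for rpl1201. The rpl21 copies lay at chrII:2503781-2503880 (- strand) for rpl2101 and chrI:3400427-3400526 (+ strand) for rpl2102. In rps102 the 2 boxes stand at -64 and -44 relative to the start, both in the direction of transcription, whereas in rpl1201 they abut in the opposite direction. Among genes that also carry results, the windows of rps902, rpl1601, rps502, rpl1901, rps101, rpl13, rpl302 and rpl802 held no exact HomolD match. Of these, rps502 and rpl1901 held ACCCTACC at -77 and -64.

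The genes differed widely in level, given here as CPM per kb of exon and averaged over 12 libraries. The highest was rps102 (SPAC22H12.04c, eS1) at 3042, followed by rps7 (SPAC18G6.14c, eS7) at 2734, rpl13 (SPAC664.05, eL13) at 2216, rps3 (SPBC16G5.14c, uS3 at the messenger RNA entry of the 40S) at 2206 and rps2 (SPCC576.08c, uS5) at 2066. The lowest were rpl1201 (SPCC16C4.13c, uL11 at the base of the stalk) at 234, rpl102 (SPBC30D10.18c, uL1 of the L1 stalk) at 305, rpl302 (SPAPB8E5.06c, the core protein L3) at 434, rpl802 (SPBC2F12.07c) at 500.5 and rpl803 (SPBC839.04) at 501. Between the extremes the levels of neighbours overlapped across libraries, and the ranges of rpl13 (1967 to 2422), rps3 (1826 to 2483) and rps2 (1635 to 2369) overlapped throughout. Within each library, however, rps2 was under both rps3 and rpl13, whereas the order of rps3 and rpl13 varied. Across the 12 libraries the coefficient of variation was between 5.20% (rpl302) and 15.03% (rps502, SPAC328.10c).

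**Figure D1:**
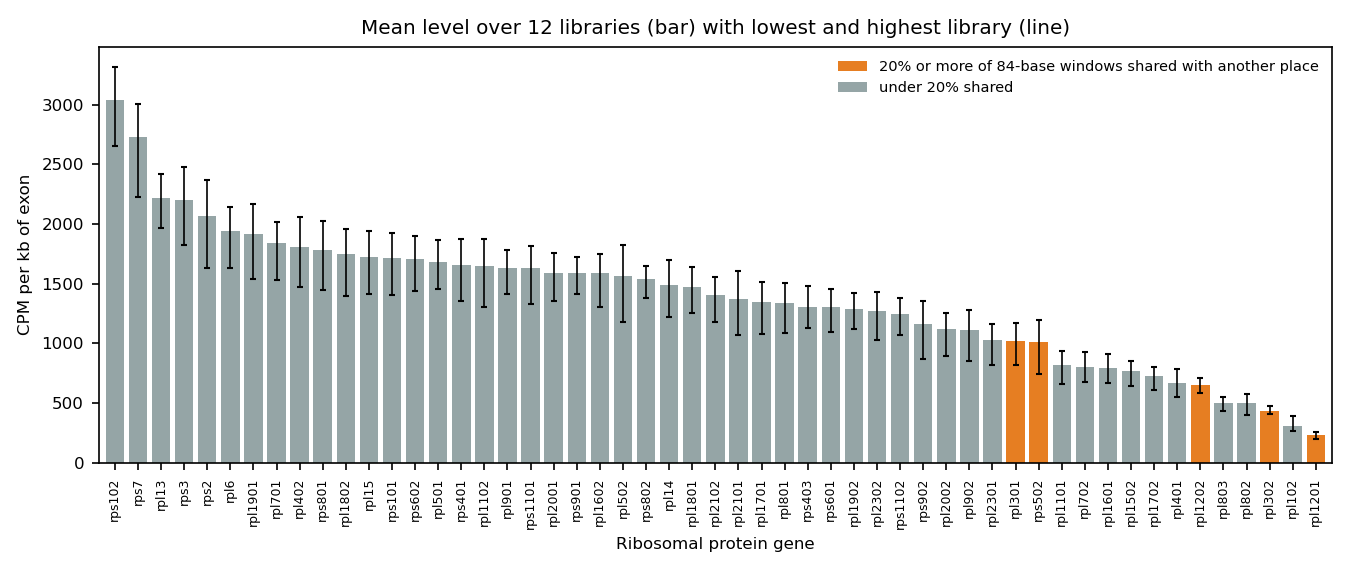
Mean level of each of 53 genes over 12 libraries, in CPM per kb of exon, with lines from the lowest to the highest library and orange bars for the 5 genes that share 20% or more of their 84-base windows. Levels run from 3042 for rps102 down to 234 for rpl1201, and 3 of the 6 lowest bars are orange.

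Copies limit how these levels can be read. Of the 54 genes, 44 shared no 84-base window, the read length, with another place in the genome, whereas 84.6% of the windows of rpl1201, 68.8% of rpl1202, 65.8% of rpl301, 55.0% of rpl302 and 21.8% of rps502 recurred elsewhere. Divided by the share of windows that do not recur, the level of rpl301 would be 2983 and its rank would move from 41 to 2, and that of rpl1202 would move from rank 49 to 6. Library depth is described in terms of uniquely aligned reads, but no source used here says how reads with several places were counted. The levels of these 5 genes are therefore uncertain. Coding sequences of copies were identical at 80.5% (rps101 and rps102) to 99.6% (rpl1201 and rpl1202) of aligned bases. An annotated gene on the opposite strand covered 50% or more of 8 of the 54 genes, among them rps902 (SPBC29A3.12, fully covered by pdp1) and rpl102 (75.1%), and no source used here says whether the counting used strand.

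The 54 genes took 6.42%, 6.40% and 6.36% of all counts in the h- wild type, and 6.62%, 6.29% and 6.502% in thc1Δ. In the h+ wild type they took 5.25%, 5.81% and 5.88%, and in bmc1Δ 5.12%, 5.64% and 5.82%. Means were 6.39 ± 0.030% and 6.47 ± 0.17% (SD, n = 3) in the thc1 experiment and 5.65 ± 0.34% and 5.53 ± 0.36% in the bmc1 experiment. Each deletion overlapped its own wild type, and every library of the bmc1 experiment lay under every library of the thc1 experiment. The 87 other ribosomal protein genes were ordered likewise, with 6.77% to 7.21% in the thc1 experiment and 5.43% to 6.29% in the bmc1 experiment.

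**Figure D2:**
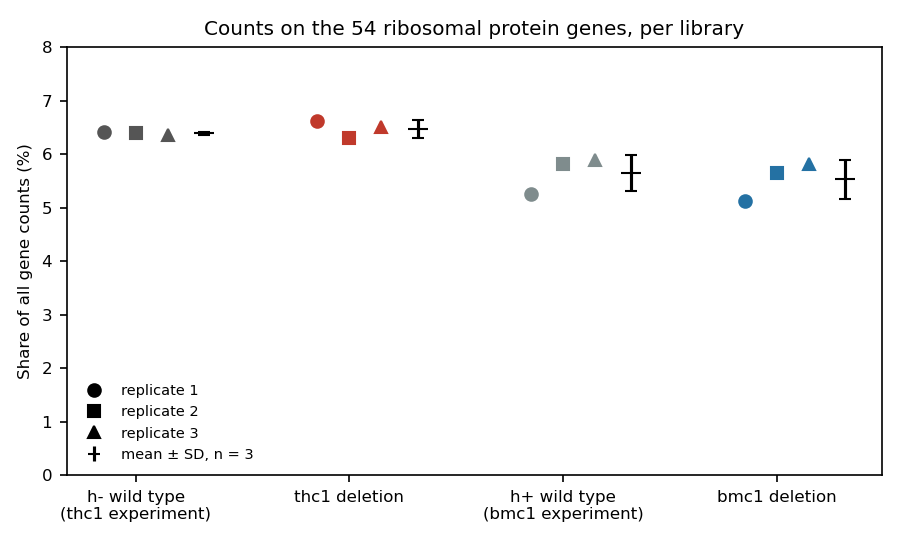
Share of all gene counts on the 54 ribosomal protein genes, in percent, for each of 12 libraries (points, shaped by replicate) with the group mean ± SD (n = 3). The 6 libraries of the thc1 experiment sit between 6.29% and 6.62% and the 6 of the bmc1 experiment between 5.12% and 5.88%, with replicate 1 lowest in both h+ groups.

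In thc1Δ 4 of the 54 ribosomal protein mRNAs rose by edgeR's quasi-likelihood test with Benjamini-Hochberg adjustment over all genes. These were rpl102, rps902, rpl401 (SPBC1711.06, uL4, which lines the exit tunnel) and rpl1601 (SPBC839.13c, uL13). None fell and none changed 2-fold. Over all 6235 genes tested, 10.0% rose, 11.1% fell and 1.20% changed 2-fold, so that 4 of 54 higher is under the background and 0 of 54 lower is too.

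rpl102 stood at 228, 238 and 229 CPM in the h- wild type and at 306, 257 and 275 CPM in thc1Δ. All 3 deletion libraries lay above all 3 wild-type libraries, and in the 6 libraries of the bmc1 experiment it stood between 209 and 231 CPM. Its log2 fold change was 0.27 ± 0.059 (SE), or 1.20-fold, with an edgeR adjusted p of 0.0173. Its opposite-strand neighbour SPNCRNA.1578 averaged 0.865 CPM against 239 for rpl102.

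rps902, a copy of uS4 near the messenger RNA entry, was at 813, 805 and 790.0 CPM in the wild type and at 908, 870 and 907 CPM in thc1Δ. The groups did not overlap, and the log2 fold change was 0.16 ± 0.035 (edgeR adjusted p = 0.0182). The gene pdp1 on the opposite strand, at 35.4 CPM on average, changed by -0.22 (adjusted p = 0.0150 in the same edgeR fit).

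rpl401 was at 862, 863 and 845 CPM in the wild type and 998, 915 and 948 CPM in thc1Δ, with a log2 fold change of 0.15 ± 0.040 (edgeR adjusted p = 0.0304). rpl1601 was at 551, 554 and 545 CPM in the wild type and 607, 590 and 626 CPM in thc1Δ, with 0.14 ± 0.035 (edgeR adjusted p = 0.0266). Both were higher in 3 of 3 deletion libraries. rps902, rpl401 and rpl1601 are each the copy with fewer CPM in its pair. The other listed copies were at log2 fold changes of 0.017 for rps901 (SPAC24H6.07), 0.043 for rpl402 (SPBP8B7.03c) and 0.028 for rpl1602 (SPAC23A1.11). Their edgeR adjusted p were 0.767, 0.485 and 0.582. A further copy of uL13 outside the list, rpl1603, also rose in thc1Δ, as given below.

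The calls in thc1Δ depended on the libraries fitted. Leaving out any of the 3 wild-type libraries left 0 of the 54 called, and leaving out thc1Δ replicate 1, 2 or 3 left 4, 4 and 2. The median log2 fold change stayed between 0.025 and 0.051 in these fits, which hold fewer libraries. Their share of calls over all genes is not given here. In the fit over all 12 libraries rpl102 alone passed, and rps902, rpl401 and rpl1601 had edgeR adjusted p of 0.302, 0.106 and 0.119.

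Across the whole group the median log2 fold change in thc1Δ was 0.037, against 0.0029 over all genes tested, and 45 of the 54 values were above 0 (83.3%, against 50.9% of all genes). In 16 genes all deletion libraries exceeded all wild-type libraries, a pattern held by 19.9% of all genes. In 1 gene, rpl6 (SPCC622.18, eL6), all were lower, as in 21.0% of all genes: 1904, 1893 and 1892 CPM in the wild type and 1845, 1806 and 1762 CPM in thc1Δ (log2 fold change -0.073, edgeR adjusted p = 0.182). The 3 thc1Δ libraries were themselves uneven, with medians of 0.072, 0.0070 and 0.039 relative to the wild-type mean, and their summed level of 10 core stress genes was 1571, 2935 and 3245 CPM against 2200.3 to 2229 CPM in the wild type. The part of this spread in the values of the ribosomal protein genes was not tested.

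rps3, rps601 (SPAC13G6.07c) and rps602 (SPAPB1E7.12) were looked at in each comparison. The last 2 encode eS6, whose phosphorylation is a standard readout of TOR activity. In thc1Δ their log2 fold changes were 0.057 ± 0.036, 0.0031 ± 0.037 and 0.0048 ± 0.038, with edgeR adjusted p of 0.288, 0.964 and 0.946.

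In bmc1Δ none of the 54 genes passed the edgeR test, and none had an unadjusted p under 0.05. Over all 6232 genes 0.0481% passed, which is 3 genes, bmc1 among them. The log2 fold changes of the 54 lay between -0.13 (rpl1201) and 0.020 (rps101, SPAC13G6.02c), with a median of -0.050 against -0.0012 over all genes, and 50 of the 54 were under 0. No gene had all 3 deletion libraries under all 3 wild-type libraries, whereas 6.42% of all genes did. DESeq2 and limma-voom also called 0 of the 54.

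The values in bmc1Δ ran with the replicate number. Same-numbered libraries of this experiment deviated together over all genes (correlations of 0.59, 0.41 and 0.34 for numbers 1, 2 and 3). Numbers 2 and 3 also correlated with each other across the groups, at 0.21 and 0.29, so these values do not settle how 2 and 3 pair. In the fit blocked on this number 28 of the 54 genes had an unadjusted p under 0.05, against 22.5% of all genes. In edgeR 0 passed the adjusted threshold, against 3.21% of all genes. Within same-numbered pairs, 45 of the 54 genes were lower in bmc1Δ in 3 of 3 pairs (83.3%, against 22.0% of all genes), and the median log2 differences of the pairs were -0.049, -0.055 and -0.033. For example, rpl401 was at 737, 840.0 and 833 CPM in the h+ wild type and at 705, 794 and 804 CPM in bmc1Δ, lower in every pair by 0.050 to 0.082 on the log2 scale, while the groups overlapped. rps801 (SPAC2C4.16c, eS8) and rps101 were the 2 genes higher in every pair, with 995, 1142 and 1184 CPM against 999, 1173 and 1201 CPM for rps801. Without replicate 1 of both groups the median was -0.047 and 0 genes passed, and leaving out single libraries moved it between -0.11 (without h+ wild-type replicate 1) and 0.0073 (without bmc1Δ replicate 1).

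**Figure D3:**
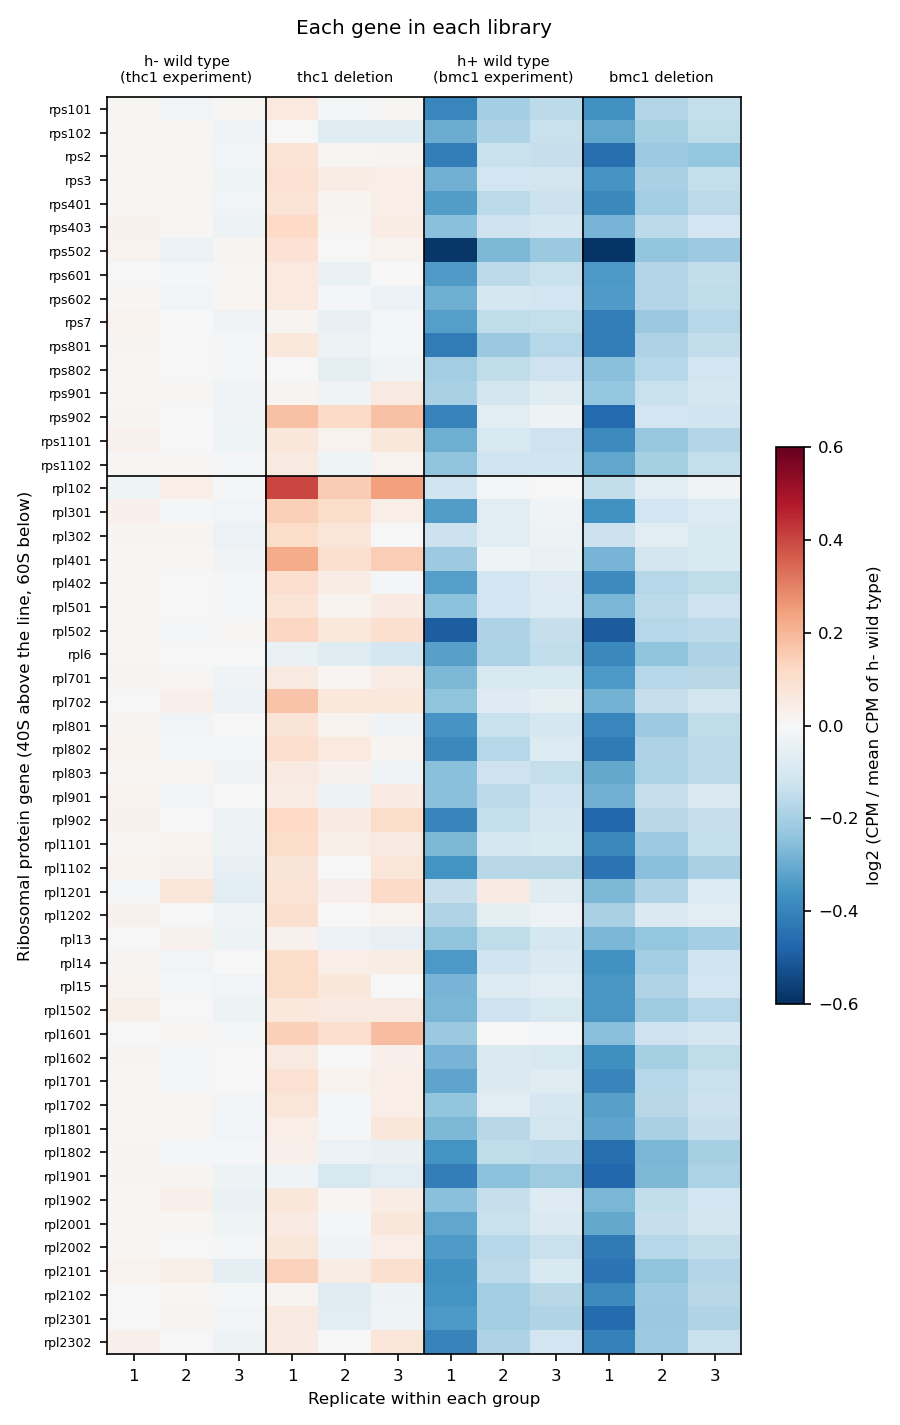
Level of each of 53 genes (rows) in each of 12 libraries (columns) as log2 of its CPM over the mean CPM of the h- wild type, in blue where lower and red where higher. The columns of the bmc1 experiment are blue, most of all replicate 1 (medians of -0.29 and -0.36), and rpl102, rps902, rpl401 and rpl1601 stand out in red in the thc1Δ columns.

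The h+ wild type was lower than the h- wild type in ribosomal protein mRNAs. Of the 54 genes, 36 fell and 0 rose by edgeR's test, against 19.3% of all 6232 genes that fell. All 54 log2 fold changes were under 0, from -0.35 (rps502) to -0.038 (rpl102), with a median of -0.17 against 0.0017 over all genes. None changed 2-fold, which 2.81% of all genes did. In 50 of the 54 the libraries of the strains did not overlap, with h+ lower, and the same held for 29.3% of all genes. Among 40S genes 15 of 17 fell and among 60S genes 21 of 37, with medians of -0.17 in both.

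rps502, a 40S gene, was at 825, 794 and 822 CPM in the h- wild type and at 542, 674 and 697 CPM in the h+ wild type. Its log2 fold change was -0.35 ± 0.085 (edgeR adjusted p = 0.0117). bmc1Δ had 541, 689 and 699.6 CPM, overlapping its own wild type.

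rpl1901 (SPBC56F2.02, eL19) was at 1499, 1497 and 1452 CPM against 1112, 1249.5 and 1279 CPM, a log2 fold change of -0.29 ± 0.057 (edgeR adjusted p = 0.00460). rps801 changed by -0.26 ± 0.063 (edgeR adjusted p = 0.0109), from 1349, 1329 and 1320.2 CPM to the levels given before. rpl502 (SPBC11C11.09c, uL18, which carries 5S ribosomal RNA) went from 1570.3, 1553 and 1569.8 CPM to 1110.4, 1377 and 1422 CPM, and rps101 from 1709, 1679 and 1710 CPM to 1297, 1475 and 1522 CPM, with -0.26 ± 0.084 and -0.24 ± 0.061 (edgeR adjusted p = 0.0350 and 0.0127). The call of rpl502 was lost in 4 of 16 alternatives (adjusted p up to 0.10) and that of rps101 in 2 of 16 (up to 0.053), each time with an h- wild-type library left out or, for rpl502, in the edgeR fit over all 12 libraries. Without h+ wild-type replicate 1, rpl502 was at -0.15. In each of these 5 genes the strains did not overlap and replicate 1 of the h+ wild type was the lowest library.

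The eS6 genes rps601 and rps602 and the uS3 gene rps3 fell by 0.20, 0.16 and 0.17 on the log2 scale (edgeR adjusted p = 0.0210, 0.0411 and 0.0384). At the other end, rpl102 was at 213, 231 and 231 CPM in the h+ wild type, overlapping the h- wild type, and its difference did not pass the test (edgeR adjusted p = 0.50). The 5 genes whose sequences recur lay at both ends, at -0.049 for rpl1201, -0.069 for rpl302, -0.087 for rpl1202, -0.13 for rpl301 and -0.35 for rps502.

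The number of genes called between the strains depended on the libraries fitted. The median log2 fold change stayed between -0.20 and -0.11 when a library was left out. Without h+ wild-type replicate 1 the median was -0.11 and 44 of the 54 genes fell, and leaving out replicate 2 or 3 of this group gave 27 and 45. Leaving out replicate 1, 2 or 3 of the h- wild type left 5, 7 and 8. These fits hold fewer libraries, and the share of all genes called in them is not given here.

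**Figure D4:**
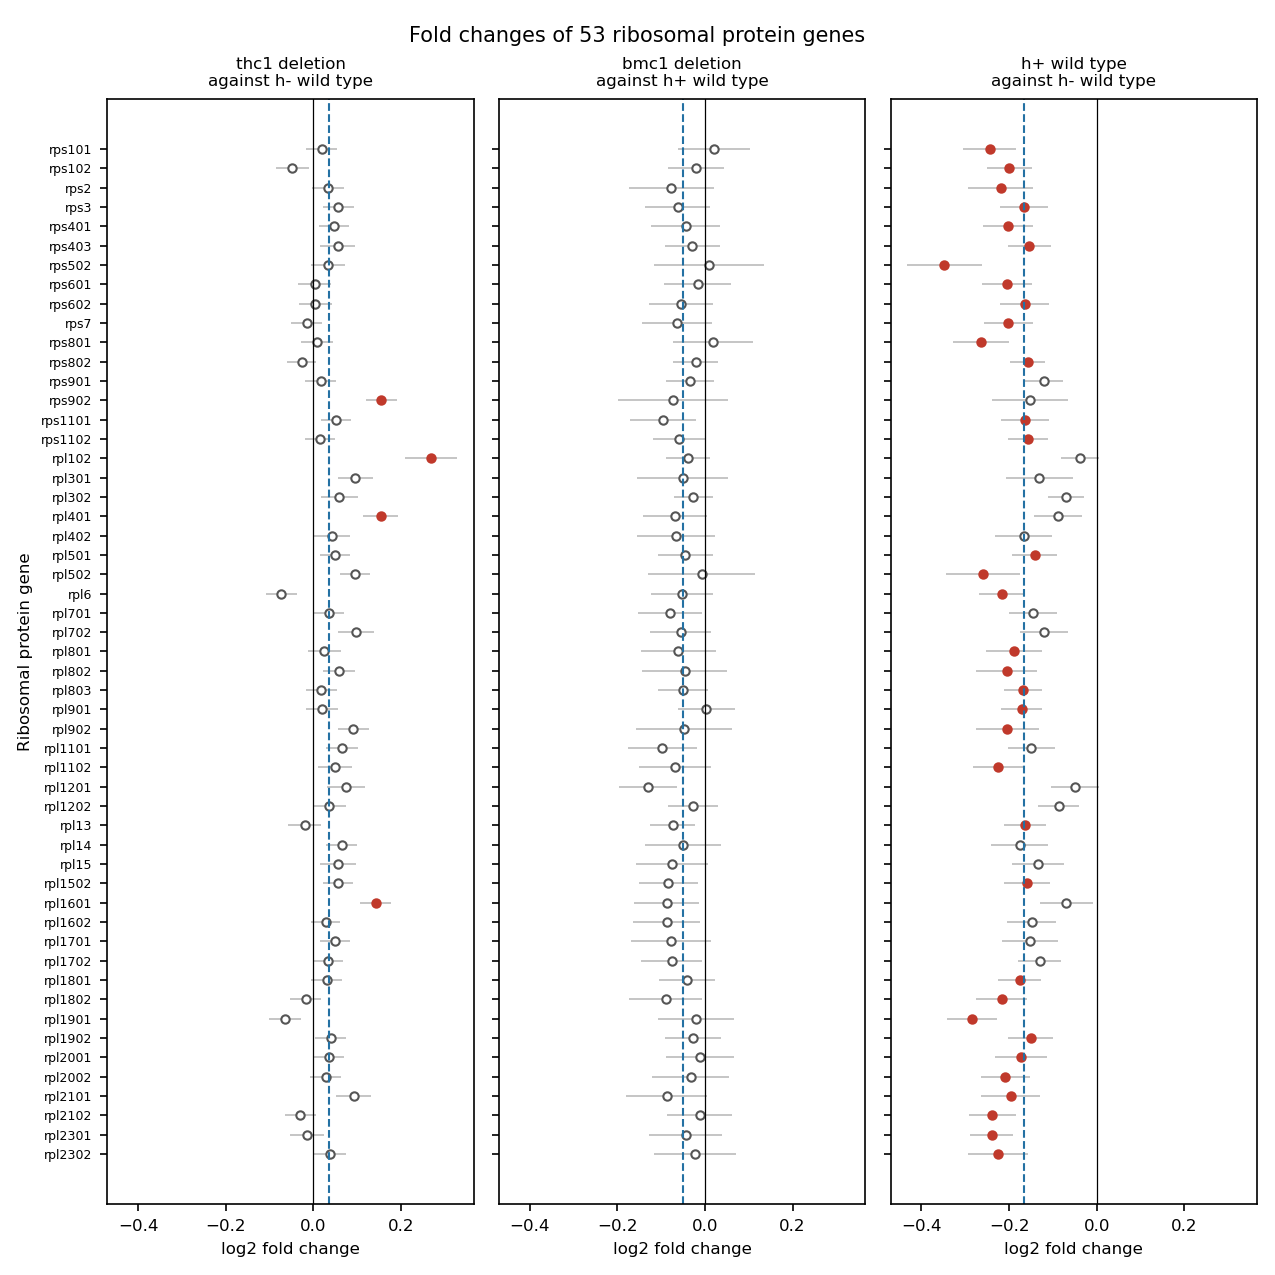
log2 fold change of each of 53 genes with its standard error (lines) in 3 comparisons, with red points for edgeR adjusted p under 0.05 and the median of the 54 as a dashed line. The medians lie at 0.037, -0.050 and -0.17, with 4, 0 and 35 red points.

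The effects of the 2 deletions, which share no control libraries, were compared in a fit over all 12 libraries. 1 of the 54 genes, rpl102, differed, with a log2 difference of 0.31 ± 0.087 between thc1Δ and bmc1Δ effects (edgeR adjusted p = 0.0440), whereas 10.4% of 6279 genes did. The median difference over the 54 was 0.088, against 0.0046 over all genes, and 47 of the 54 were above 0. In the fit blocked on replicate number, in which 17.3% of all genes passed, 7 of the 54 did: rpl102, rps902, rpl401, rpl1601, rpl301 (SPAC17A5.03), rpl1101 (SPAC26A3.07c) and rpl2101 (SPBC365.03c). That block paired the thc1 libraries by number too, although their same-numbered deviations correlated at only 0.053, -0.039 and -0.038. The 7 calls rest on this pairing. The call of rpl102 is close to the threshold and was lost in 9 of 12 fits that left out a library.

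Within a pair of copies the share of each was taken from counts divided by exon length. It is a ratio inside a library and does not depend on the scaling of that library. Over 25 pairs the shares in thc1Δ differed most for rps901 within rps901 and rps902, at 57.9%, 58.1% and 58.1% in the h- wild type and 55.3%, 55.7% and 56.0% in thc1Δ, a difference of -2.36 percentage points. rpl2101 took 49.0%, 49.2% and 47.8% of the rpl21 pair in the wild type and 50.8%, 50.7% and 50.9% in thc1Δ, a difference of 2.11 points. rpl1601 took 32.0%, 32.5% and 32.1% of the rpl16 pair in the wild type and 33.6%, 33.7% and 34.6% in thc1Δ, a difference of 1.75 points. None of these groups overlapped, and each had p = 0.1 in a two-sided exact permutation test, the smallest that 3 against 3 libraries allow. These 3 were picked as the largest of the 25 shifts, and lack of overlap was not particular to them. For example, rpl1901 shifted by -1.74 points within the rpl19 pair, also without overlap (exact permutation p = 0.1). Between the wild types rpl1601 was 1.19 points higher in h+ without overlap, whereas rps901 and rpl2101 overlapped.

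In bmc1Δ the differences included -1.37 points for rpl1201 within rpl1201 and rpl1202 and -1.30 points for rpl2101. The rpl1201 groups overlapped (exact permutation p = 0.2). For rpl2101 the 3 deletion libraries, at 47.6%, 48.2% and 48.5%, lay under the wild type at 48.7%, 49.6% and 50.0% (exact permutation p = 0.1), the opposite side from thc1Δ.

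**Figure D5:**
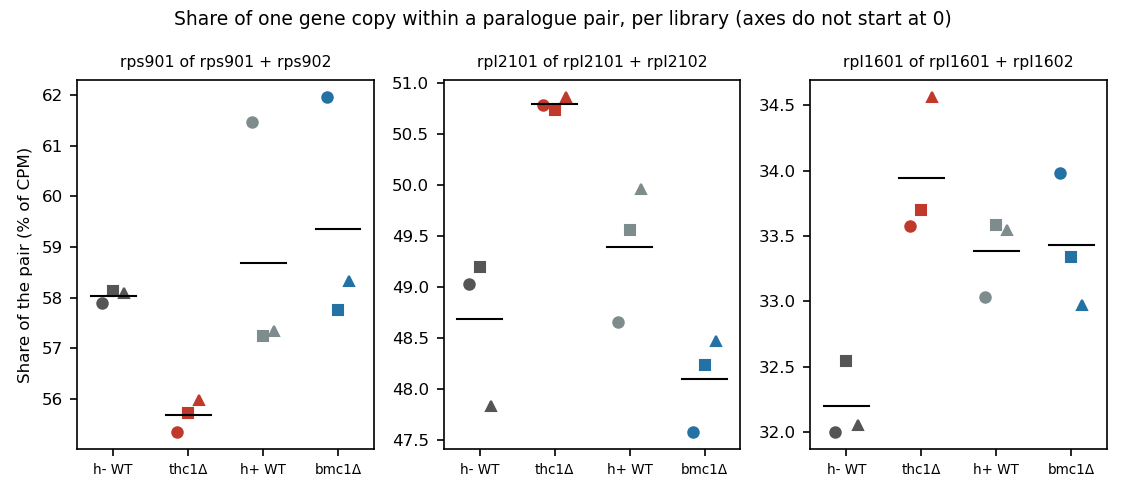
Share of the first-named copy in 3 pairs, in percent of the pair's counts per base of exon, which the axis labels as CPM. Each library is a point (circle, square and triangle for replicates 1, 2 and 3) with the group mean as a line. The axes do not start at 0. rps901 is lower and rpl2101 and rpl1601 are higher in all 3 thc1Δ libraries, and replicate 1 of both h+ groups is highest for rps901.

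Other genes of ribosome production and translation gave the setting of these values. In thc1Δ, among the 87 other ribosomal protein genes 5 rose and 2 fell, with the highest at 0.45 for rpl3002, 0.26 for rpl1603, a further copy of uL13, and 0.21 for rpl4101 (edgeR adjusted p = 0.00022, 0.0038 and 0.0090). Of 45 ribosome biogenesis genes 3 rose and 2 fell, among them fib1, the box C/D methyltransferase fibrillarin, at 0.24 and sqt1, a chaperone of ribosomal protein assembly in budding yeast, at -0.42 (edgeR adjusted p = 0.0092 and 0.0018). Of 10 RNA polymerase I genes rpa34 rose by 0.47 (edgeR adjusted p = 0.0019), and of 23 TOR pathway and regulator genes gaf1 rose by 0.15 while psk1, an S6 kinase, and sfp1 fell by 0.23 and 0.20 (edgeR adjusted p = 0.0198, 0.0072 and 0.0198). None of 8 elongation and 15 initiation factor genes passed the test. Over all genes tested in thc1Δ 10.0% rose and 11.1% fell, and no list given here exceeded either share. In bmc1Δ none of these lists held a gene that passed the test.

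Between the wild types 64 of the 87 other ribosomal protein genes fell and 0 rose, with a median of -0.19. Of the 45 ribosome biogenesis genes 32 fell and 1 rose (median -0.25), led by sqt1 at -0.55, imp4 at -0.52 and imp3 at -0.40 (edgeR adjusted p = 4.66e-05, 3.69e-05 and 5.94e-05). Of the translation factors 2 of 8 elongation and 5 of 15 initiation genes fell, sui1 (eIF1) by 0.31 (edgeR adjusted p = 0.0063). Over all genes 22.2% rose and 19.3% fell between the wild types. In the TOR list 8 of 23 rose and 1 fell. Of 10 core stress genes 7 rose and 1, the small heat shock gene hsp16, fell, and their part in the difference of the ribosomal protein genes was not tested.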

How the data were processed

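RNA of 4 groups of 3 libraries each was depleted of ribosomal RNA, made into stranded libraries with 8 PCR cycles and sequenced single-end for 84 cycles. Per the labels and the study's methods, the authors aligned reads with STAR 2.5.2b to ASM294v2 and tested with DESeq2 1.22.2; no source used here names the counting tool, the annotation or the use of strand. The deposited values are raw counts per gene. They were tested with edgeR 4.0.16 (TMM scaling, filterByExpr with a minimum count of 10, quasi-likelihood test, Benjamini-Hochberg adjustment over all genes) in R 4.3.3. Genes with adjusted p under 0.05 were called, with |log2 fold change| of at least 1 for 2-fold calls; SE is |log2 fold change| divided by the square root of F. CPM use TMM-scaled totals. Depth was 33565122 to 40328959 counts per library. PCR reads without molecular identifiers are not independent molecules.

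Names, exon lengths and sequence come from RefSeq ASM294v3, matched by locus tag for 6846 genes and by synonym for 15, with 143 unmatched; no coordinates were moved between builds. The design foresaw protein identity between copies, and coding-sequence identity was computed instead. Scripts were tested on simulated data. Alternatives were RLE scaling, library totals, TMM without ribosomal protein genes, no filter, a mean count of at least 50, DESeq2 1.42.0, limma-voom 3.58.1, 1 fit over 12 libraries, removal of ribosomal RNA and mitochondrial genes, a replicate block and leaving out each library. Replicate numbers were taken to pair libraries in the bmc1 experiment only, since each correlation of same-numbered deviations there was over 0.1 (lowest 0.34). Numbers 2 against 3 also passed this mark, at 0.21 and 0.29, so it does not set their pairing apart. The replicate block was still run as an alternative in every comparison. Named genes were those with the 5 largest rises and falls called in each comparison, the 5 highest and lowest levels, the 3 pairs with the largest shift in each deletion, rps601, rps602 and rps3, and up to 3 called genes of each other list. The genes, lists and tests were chosen with earlier results of these data known. Values of 1 gene and of its pair are not reported here, and it is not drawn in the plots by gene, although it is included in the counts and medians.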

Additional observations from a re-analysis of the deposited data

Results flagged for a closer look

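rpl102 was singled out because the 2 deletions differed in it. The log2 difference between the effect of thc1Δ and that of bmc1Δ was 0.31 (edgeR adjusted p = 0.0440). Its log2 fold change was 0.27 in thc1Δ, higher in 3 of 3 libraries, and -0.039 in bmc1Δ. The call was lost in 10 of 22 alternative fits, 9 of them among the 12 that left out a library. It was the only call among the 54 genes, whereas 10.4% of 6279 genes were called.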

How the results depend on the processing

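Counts of the 54 genes called, and their median log2 fold changes, kept their direction under the alternatives run, with these exceptions. In thc1Δ, 1 gene was called instead of 4 with all 12 libraries in 1 fit and 1 with the replicate block, and between 0 and 4 when a library was left out (median 0.025 to 0.051). Between the wild types the replicate block gave 22 instead of 36, and leaving out a library gave 5 to 45 (median -0.20 to -0.11). The numbers do not pair these libraries, nor those of the thc1 experiment. In bmc1Δ every alternative called 0 genes, and the median ran from -0.11 to 0.0073 over left-out libraries. The difference between the deletions was called in 1 gene, in 0 with library totals alone and in 7 with the replicate block, which paired both experiments by number. It was called in 4 without both libraries numbered 1 of the bmc1 experiment (chosen after seeing the data) and in 0 to 3 over left-out libraries (median 0.029 to 0.14). Without ribosomal RNA and mitochondrial genes in the denominator the mean share rose to 6.68% in the h- wild type and 6.79% in thc1Δ, which follows from the smaller total; leaving out a library gave 6.38% to 6.41%, 6.40% to 6.56%, 5.53% to 5.84% and 5.38% to 5.73% in the 4 groups. The 3 largest falls between the wild types, rps502, rpl1901 and rps801, passed in 16 of 16 alternatives. The cause of the other changes was not tested.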
